A study of Mus musculus with 2 samples.

Results

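Natural killer (NK) cells of the mouse heart were taken from an scRNA-Seq study of CD45+ cells, that is, leukocytes, sorted from hearts 24 hours after a single injection. A barcode, the label that marks the transcripts of 1 droplet, was taken as an NK cell when it held at least 8 unique molecular identifiers (UMIs, each standing for 1 captured transcript) of Ncr1, Klre1, Klrb1c, Prf1, and Gzma together. At least 2 of them had to come from Ncr1, Klre1, and Klrb1c. Barcodes were left out with more than 1 UMI of Cd3d and Cd3e, more than 3 of C1qa, C1qb, and C1qc, more than 2 of Cd79a, Cd79b, and Ms4a1, or 1% or more of UMIs from S100a8 and S100a9. The rule found 474 of 11078 kept barcodes, of which 421 were in the control library and 53 in the ISO library. The members were thus chosen by measured values, so the levels of these genes and the marker pattern are descriptions of the choice.

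The study had 2 groups of female mice of the strain labelled C57BL6, which the methods of the study give as C57BL/6J. The ISO group received 200 mg/kg isoproterenol (ISO), a beta-adrenergic agonist, as an i.p. injection, which the study uses as a model of Takotsubo syndrome, and the control group received PBS by those methods. The treatment label of the control sample also gives ISO, so this sample is a control by its title and the methods, and every ratio below depends on that. The methods give 8 to 16 weeks as the age of mice in this model. No transgene or deletion is named for either group. Cells of 3 hearts were pooled and 15000 cells were loaded for each 10x Genomics 3′ v3 library, so each group was 1 library. No difference below has a replicate check, no p-value is given, and intervals are 95% intervals that cover counting error only.

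NK cells are innate lymphocytes that kill stressed or infected cells by releasing perforin and granzymes and that secrete interferon-γ and chemokines. Their activity is set by a balance of activating receptors such as NKp46 (Ncr1) and NKG2D (Klrk1) and of inhibitory receptors, among them members of the Ly49 (Klra) family, that read MHC class I. As they mature, they lose CD27, gain CD11b (Itgam) and KLRG1, and acquire the sphingosine phosphate receptor S1PR5, which guides them out of tissue and into blood. Group 1 innate lymphoid cells (ILC1) are tissue-resident relatives that share NKp46 and NK1.1 (Klrb1c) and usually lack Eomes.

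A larger part of the ISO members than of the control members lay close to the threshold. The 5 genes together had a median of 63 UMIs per control member, with quartiles of 43 and 86, and of 27 per ISO member, with quartiles of 14 and 71. Just inside the threshold, 12 control and 9 ISO barcodes held 8 to 10 UMIs. Just outside it, 11 control and 7 ISO barcodes held 5 to 7 UMIs and passed every other limit. Members had a median of 3645 UMIs in control and 5563 in ISO, against 5122 and 8554.5 in the other kept barcodes. No control member's barcode was also an ISO member, while 15 barcodes were kept in both libraries and 1 of them was a control member.

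The marker check held for nearly all control members and failed for many ISO members. Macrophage transcripts, a list of 19 genes such as Lyz2, Apoe, and Csf1r, summed to 495 (463 to 529.9) CPM, the UMIs of a gene scaled to a total of 1000000, in control members. The same list summed to 19447 (19022 to 19878) CPM in ISO members, and all 19 genes were detected there. A limit was therefore added after these values were seen, at the 99th percentile of the control members, which was 2531 CPM of macrophage transcripts or 2599 CPM of dendritic cell transcripts. It was passed by 8 of 421 control members (1.90%, 0.824 to 3.71) and by 29 of 53 ISO members (54.7%, 40.4 to 68.4), 28 of them for macrophage transcripts. These barcodes are called mixed below. No doublet caller was run, and whether a mixed barcode held 1 cell, several cells, or free RNA was not tested.

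The 29 mixed ISO barcodes held a median of 9912 UMIs, against 3830.5 in the 24 other ISO members and 3645 in the 413 other control members. In the mixed barcodes, the 5 rule genes had a median of 25 UMIs and Lyz2, a macrophage lysozyme, a median of 57. In the 24 others, the rule genes had a median of 63 UMIs, the same as in the 413 control barcodes, and Lyz2 a median of 0. The quartiles of the rule genes were unlike, with 19 and 98 UMIs in the 24 and 43 and 86 in the 413. Scaled to CPM, their medians were 13698 in the 24 and 18102 in the 413. Mixed ISO barcodes still carried transcripts of the Klra receptors, with a median of 10 UMIs, against 9 in the 24 others and 12 in control. Those counts are at the unlike depths just given. With 2000 UMIs drawn from each barcode, 41.4% of the 29 mixed ISO barcodes held 2 or more Klra genes. The shares were 54.2% of the 24 others and 77.5% of 400 control barcodes. The 7 NK markers, which add Eomes and Nkg7 to the rule genes, summed to 20659.7 (20442 to 20879.6) CPM in the 413 control barcodes and 19364 (18523 to 20234) in the 24 ISO barcodes. They summed to 3832 (3616 to 4057) CPM in the 29 mixed ISO barcodes. Gene levels and ratios below are therefore those of the 437 barcodes with few myeloid UMIs, and ratios over all 474 members are given beside the leading genes and lists.

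**Figure D1:**
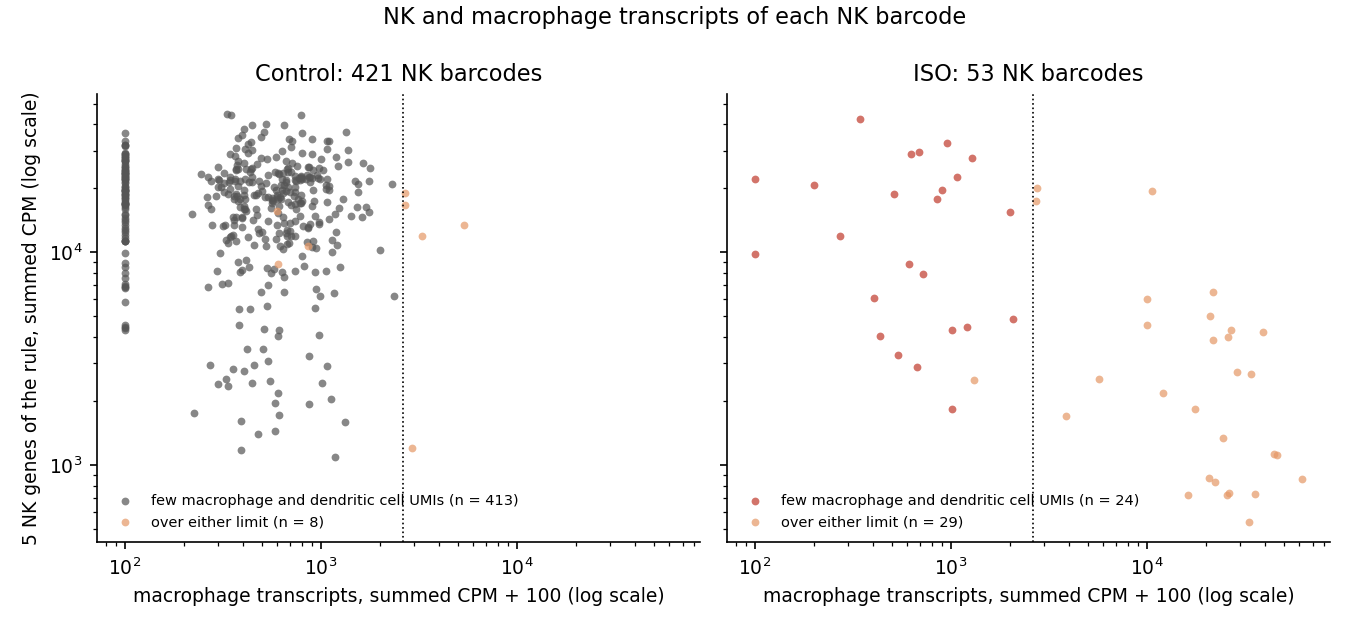
Each point is 1 NK barcode of the control (left) or ISO (right) library, with its summed CPM of the macrophage transcripts plus 100 on the x axis and of the 5 rule genes on the y axis, both on log scales, and the dotted line marks the macrophage limit. The 24 ISO barcodes left of it with few myeloid UMIs span the range of the 413 control barcodes, and 28 of the 29 mixed ISO barcodes lie to its right, with rule genes from 539.5 to 20144 CPM that overlap those of the other barcodes.

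Lists of other lineages were not all at their control level in the 24 ISO barcodes with few myeloid UMIs. The macrophage and dendritic cell sums there are held low by the limit itself. Macrophage transcripts summed to 651 (505 to 827) CPM against 436 (405 to 469) in control, and Cd68, Csf1r, Fcgr1, Emr1, Mrc1, Arg1, and Cd63 were at 0 in ISO. Dendritic cell transcripts summed to 408 (294 to 552) CPM against 488 (454 to 522). T cell transcripts summed to 622 (479 to 794) CPM against 412 (381 to 444), with Cd3e and Trac at 0 in ISO. The rule limits Cd3d and Cd3e but not Cd3g, which was found in ISO. Cd3g came first in a ranking of genes higher in few-myeloid ISO barcodes. Both the macrophage and the T cell interval lay above that of control. Neutrophil transcripts, also above control, summed to 146 (81.6 to 240.5) CPM against 43.99 (34.5 to 55.3), and B cell transcripts to 19.4 (2.35 to 70.2) against 60.3 (49.03 to 73.3). ILC2 transcripts, those of group 2 innate lymphoid cells, summed to 885 (712 to 1086) CPM against 371 (342 to 402), and of their 91 ISO UMIs, 34 of Areg and 16 of Gata3 were in 1 barcode. The part of these transcripts in the ratios below was not tested. Red cell, platelet, cardiomyocyte, fibroblast, and endothelial lists each summed to under 50 CPM in both groups.

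NK barcodes made up a smaller share of the kept CD45+ cells after ISO. They were 421 of 5641 kept barcodes in control (7.46%, 6.79 to 8.18) and 53 of 5437 in ISO (0.975%, 0.731 to 1.27), a log2 ratio of -2.94 (-3.35 to -2.53). Those with few myeloid UMIs were 7.32% (6.65 to 8.03) in control and 0.441% (0.283 to 0.656) in ISO, a log2 ratio of -4.05 (-4.64 to -3.46). Among kept barcodes other than B cells, the shares of all members were 8.37% and 0.980%, and those of members with few myeloid UMIs 8.22% and 0.444%. Among NK and T cells alone the shares of all members were 68.5% and 40.8%, a log2 ratio of -0.75 (-1.06 to -0.44). Of the T cells in that denominator, 26 of 194 in control and 58 of 77 in ISO were over the myeloid limits too. Among NK and T cells with few myeloid UMIs, the shares were 71.1% and 55.8%, a log2 ratio of -0.35 (-0.74 to 0.042), with an interval that includes 0. A share falls when NK cells are fewer and also when other cells are more, and these cannot be told apart here. The limit on C1q transcripts alone left out 45 control barcodes and 18 ISO barcodes that passed the rest of the rule, with medians of 71 and 77 C1q UMIs.

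Gene levels were compared as log2 ratios of summed UMIs, ISO over control, for genes with at least 50 UMIs over both libraries, and a gene past 2-fold is one with a log2 ratio of at least 1 or at most -1. In barcodes with few myeloid UMIs, 309 of 5174 genes (5.97%) were past 2-fold higher and 768 (14.8%) past 2-fold lower, with a median log2 ratio of -0.076. The counting interval lay above 0 for 418 genes and below 0 for 431. Over all members, 482 of 5785 genes (8.33%) were past 2-fold higher and 1066 (18.4%) past 2-fold lower, with a median of -0.29. Of those, 92 of the 482 higher genes and 437 of the 1066 lower genes were also past 2-fold the same way without the mixed barcodes. Ratios over all members are thus to be read against -0.29 and those with few myeloid UMIs against -0.076.

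The levels of the rule genes and their ratios follow from how members were chosen and are given as a description. Gzma, a granule serine protease on chromosome 13 (113093825 to 113100981, minus strand, GRCm38), was at 12926 (12754 to 13100) CPM in control and 12394 (11723 to 13094) in ISO, a log2 ratio of -0.060 (-0.14 to 0.021). Ncr1, the activating receptor NKp46, was at 879 (835 to 926) CPM in control and 923 (747 to 1129) in ISO, a log2 ratio of 0.078 (-0.24 to 0.37). Nkg7, a granule membrane protein that the rule did not use, was at 3717 (3625 to 3811) and 3587 (3230.3 to 3972) CPM, a log2 ratio of -0.050 (-0.21 to 0.10). Over all members, these 3 genes had log2 ratios of -1.44, -0.96, and -1.30. The other rule genes had log2 ratios of -0.26 for Klre1, -0.25 for Klrb1c, and -0.36 for Prf1, the pore-forming perforin.

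Eomes, the transcription factor that sets NK cells apart from ILC1, was the marker with the lowest ratio. It was at 385 (356 to 416) CPM in control and 194 (119 to 300.3) in ISO, a log2 ratio of -0.95 (-1.71 to -0.35), and -1.63 over all members. A UMI of Eomes was found in 273 of 413 control and 9 of 24 ISO barcodes. No UMI of it was found in 614 control B cells, which should lack it, at a median of 3875 UMIs, and 3 counts, the limit used here for a count of 0, would be a share of 0.489%. Across the 7 markers the median log2 ratio was -0.25 with few myeloid UMIs and -1.44 over all members.

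Of 17 cytotoxic granule genes measured in few-myeloid barcodes, 0 were past 2-fold higher and 2 (11.8%) lower, against 5.97% and 14.8% of all genes. Their median was -0.050, and -0.83 over all members. The list includes the rule genes Gzma and Prf1. Gzmb, the granzyme that cuts caspases, was at 1465 (1407 to 1524) CPM in control and 2129 (1856 to 2430.3) in ISO, a log2 ratio of 0.54 (0.33 to 0.74). Serpinb9, which protects killer cells from granzyme B, had a log2 ratio of 0.56 (0.30 to 0.80), and Srgn, the proteoglycan that packs granules, one of 0.70 (0.44 to 0.95). These genes were higher by less than 2-fold, with intervals above 0. Gzmb and Serpinb9 were below 0 over all members, at -0.91 and -0.83. Fasl, the death ligand, had a log2 ratio of -0.61 (-1.28 to -0.061). The genes past 2-fold lower were the release factors Stx11 and Stxbp2, which had 2 UMIs each in ISO and intervals that include 0.

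**Figure D2:**
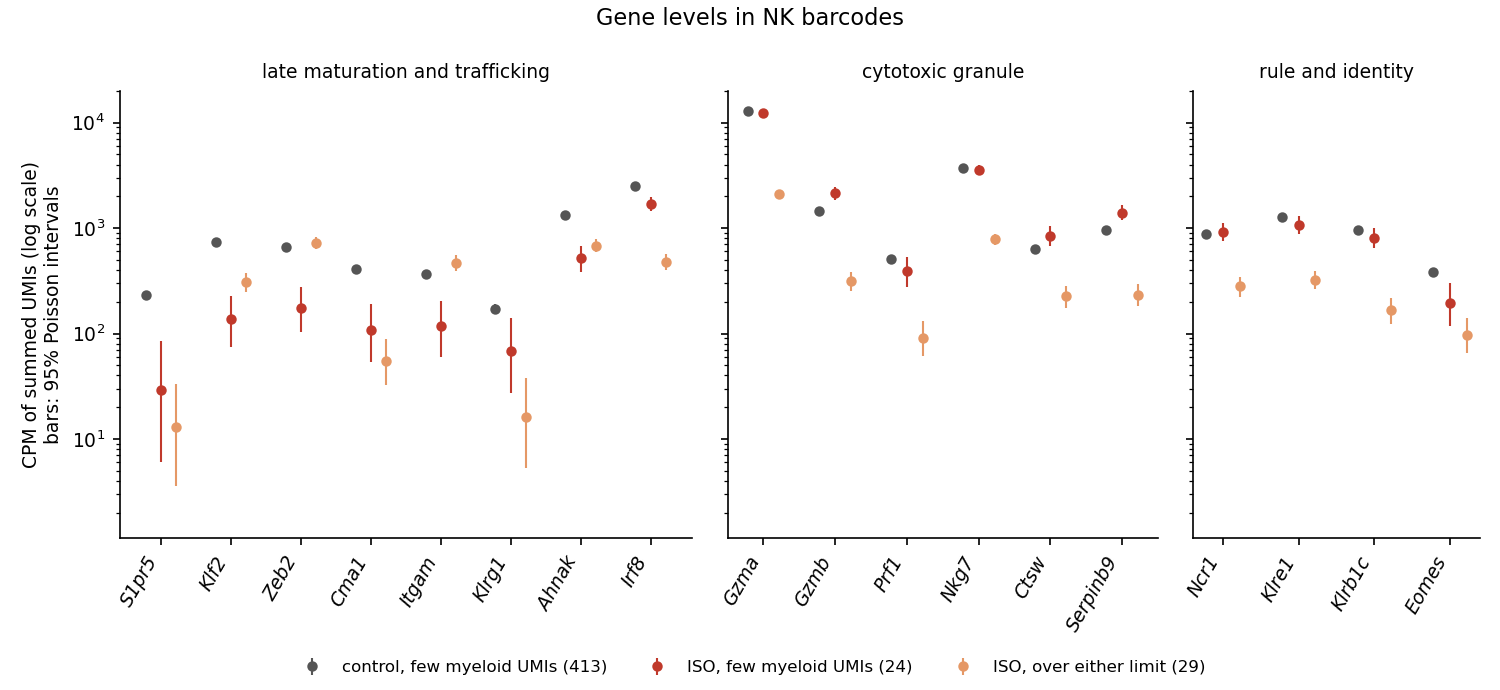
CPM of summed UMIs on a log scale with 95% Poisson intervals for genes of 3 kinds, in the 413 control and 24 ISO barcodes with few myeloid UMIs and in the 29 mixed ISO barcodes. Gzma, Nkg7, and Ncr1 are at like levels in control and few-myeloid ISO barcodes, S1pr5, Klf2, Zeb2, and Cma1 are lower in ISO, and Zeb2 and Itgam are at or above the control level in the mixed barcodes.

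Genes of late NK maturation were lower in ISO, with and without the mixed barcodes. Of the 12 genes of the list, 8 were past 2-fold lower and 0 past 2-fold higher in few-myeloid barcodes, against 14.8% and 5.97% of all genes. The median log2 ratio was -1.30, and -1.41 over all members. The promoters of 2 of these genes and of Gzma are shown. Gzma had a similar level in both libraries, but it is a rule gene, so its level depends on how members were chosen. Each sequence is the 250 bases before the start of the gene, from RefSeq on GRCm38.p6, 5′ to 3′ on the strand of the gene. Capitals mark matches on either strand to the T-box core AGGTGT, which T-bet and Eomes bind, and to the shorter KLF core CACCC, which factors such as KLF2 bind. The motifs do not overlap each other here, and of 32851 promoter windows of this length, 11.8% hold the first and 52.0% the second.
S1pr5, chr9:21248444-21248693, minus strand: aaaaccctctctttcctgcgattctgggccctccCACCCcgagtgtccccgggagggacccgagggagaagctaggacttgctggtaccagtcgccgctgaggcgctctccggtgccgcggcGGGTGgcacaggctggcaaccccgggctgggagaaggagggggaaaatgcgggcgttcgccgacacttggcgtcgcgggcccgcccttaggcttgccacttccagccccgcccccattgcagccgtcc
Cma1, chr14:55944676-55944925, minus strand: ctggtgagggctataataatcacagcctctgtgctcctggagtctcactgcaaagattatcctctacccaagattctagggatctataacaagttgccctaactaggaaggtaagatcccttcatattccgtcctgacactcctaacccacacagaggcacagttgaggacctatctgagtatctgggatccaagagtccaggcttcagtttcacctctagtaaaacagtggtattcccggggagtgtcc
Gzma, chr13:113100982-113101231, minus strand: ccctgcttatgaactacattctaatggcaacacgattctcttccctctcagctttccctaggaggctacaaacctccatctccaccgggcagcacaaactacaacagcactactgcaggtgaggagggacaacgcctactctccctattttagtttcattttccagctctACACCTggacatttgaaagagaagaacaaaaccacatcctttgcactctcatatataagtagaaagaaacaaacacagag
S1pr5 holds 2 KLF matches and no T-box match, Cma1 holds neither motif, and Gzma holds 1 T-box match. These matches are letters in a window and say nothing of binding.

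S1pr5, the exit receptor, lies on chromosome 9 (21242912 to 21248443, minus strand, GRCm38). It was at 229.6 (207 to 254) CPM in control and 29.2 (6.01 to 85.2) in ISO, the latter from 3 UMIs. Its log2 ratio was -2.76 (-5.26 to -1.42), and -3.63 over all members, the lowest of the genes ranked by the rule for named genes. After each barcode was thinned to 1000 UMIs, a UMI of S1pr5 was found in 23.5% (19.5 to 27.9) of 413 control barcodes and in 0 of 24 ISO barcodes, which allows a share of up to 12.5%, that is, 3 counts of 24. Without thinning these shares were 51.1% and 12.5%, against 0.977% of 614 control B cells, at median depths of 3645, 3830.5, and 3875 UMIs. S1pr5 was also lower in the other cells of the ISO library than in those of control, as given below. No measure of the spread between hearts was available.

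Klf2, a zinc finger factor that keeps lymphocytes quiescent and circulating and lies on chromosome 8 (72319033 to 72321656, plus strand), was at 745 (704 to 788) CPM in control and 136 (74.4 to 228) in ISO, a log2 ratio of -2.40 (-3.33 to -1.70). Zeb2, a repressor needed for terminal NK maturation, was at 662 (624 to 703) and 175 (104 to 277) CPM, a log2 ratio of -1.88 (-2.68 to -1.25). Cma1, a chymase gene on the list of conventional NK genes, was at 405 (375 to 437) and 107 (53.4 to 191) CPM, a log2 ratio of -1.86 (-2.93 to -1.07). All these intervals lie below -1. Klf2 was also lower in the other cells of the ISO library, as given below. Itgam, the integrin CD11b, was at 369 (340.2 to 399) CPM in control and 117 (60.3 to 204) in ISO, a log2 ratio of -1.60 (-2.62 to -0.85). Klrg1, an inhibitory receptor of mature cells, had a log2 ratio of -1.23 (-2.66 to -0.27), and Ahnak, a large scaffold protein, one of -1.36 (-1.79 to -0.98). Cx3cr1, the fractalkine receptor, had 1 UMI in ISO and a log2 ratio of -2.41 (-8.30 to -0.48).

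The mixed barcodes changed some of these values. Zeb2 was at 719 (628 to 821) CPM in the 29 mixed ISO barcodes and Itgam at 469 (395 to 552), and both genes are also expressed by macrophages. Over all members their log2 ratios were -0.17 and 0.041, with the few-myeloid values far below. The ratios over all members were -1.47 for Klf2, -2.53 for Cma1, -2.46 for Klrg1, -1.04 for Ahnak, and -1.34 for Cx3cr1. S1pr5 and Cma1 were low in the mixed barcodes too, at 13.02 (3.55 to 33.3) and 55.3 (32.2 to 88.6) CPM. Gzmb is on the late maturation list as well and was higher, as given above, while Lgals1, galectin 1, had a log2 ratio of 0.20 (-0.020 to 0.40). The shift was thus not shared by every gene of the list.

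Several genes of early maturation were higher in few-myeloid ISO barcodes. Of 8 such genes, 5 were past 2-fold higher and 1 past 2-fold lower, against 5.97% and 14.8% of all genes, with a median of 1.20, and 0.18 over all members. Xcl1, the chemokine that attracts cross-presenting dendritic cells, was at 724 (684 to 766) CPM in control and 1594 (1359.6 to 1858) in ISO, a log2 ratio of 1.14 (0.89 to 1.37). Ctla2a, a cathepsin inhibitor, was at 354 (326 to 384) and 875 (704 to 1075) CPM, a log2 ratio of 1.31 (0.97 to 1.63). Cd160, an activating receptor, had a log2 ratio of 1.27 (0.34 to 2.02), Ltb, lymphotoxin β, one of 1.26 (0.33 to 2.01), and Emb, embigin, one of 1.31 (0.47 to 1.996). Cd27, which marks the early stages by name, had a ratio of 0.37 (-0.58 to 1.10), and Tcf7, a factor of early NK cells, 3 UMIs in ISO and a ratio of -1.06 (-3.57 to 0.31). Over all members, the log2 ratios were 0.21 for Xcl1, 0.18 for Ctla2a, -0.37 for Cd160, 0.64 for Ltb, and 1.88 for Emb, so that only Emb of these was past 2-fold there. T cell transcripts, some of which share genes with this stage, were given above, and their part in these ratios was not tested.

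The same shift was visible per barcode at equal depth. After thinning to 2000 UMIs, the late genes had a median of 20 UMIs in 400 control barcodes, with a range of 0 to 54, and of 13.5 in 24 ISO barcodes, with a range of 5 to 36. The early genes had a median of 1 UMI in control and 5 in ISO, with ranges of 0 to 73 and 0 to 28. The ranges overlapped, and control itself held barcodes with few late and many early UMIs. The granule list had medians of 51 and 46.5 UMIs. It includes the rule genes Gzma and Prf1, so these medians follow in part from how members were chosen.

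**Figure D3:**
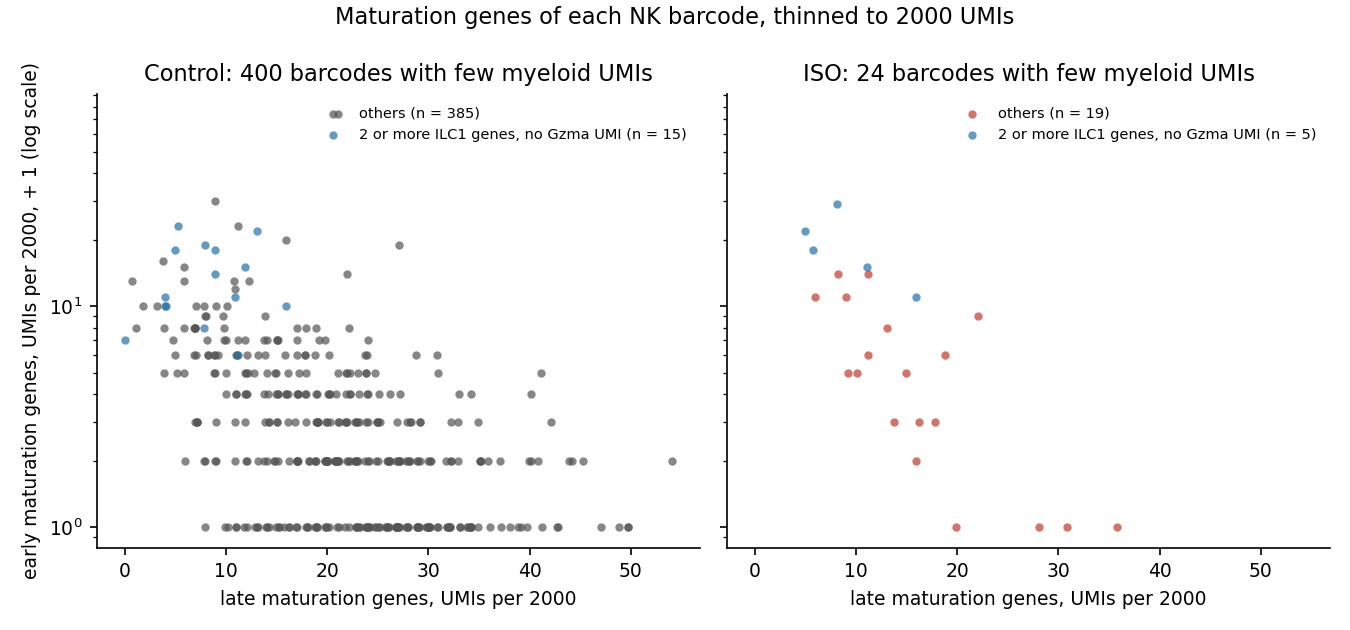
Each point is 1 NK barcode with few myeloid UMIs after thinning to 2000 UMIs, with UMIs of the late maturation genes on the x axis (moved sideways by up to 0.25 to separate points) and UMIs of the early genes plus 1 on a log y axis. 20 of the 24 ISO barcodes and 207 of the 400 control barcodes have at most 20 late UMIs, and barcodes with several ILC1 genes and no Gzma lie at the upper left in both libraries.

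Some of the members carried genes of the ILC1 list, which T cells carried too. In T cells with few myeloid UMIs the list summed to 1797 CPM in control and 3657 in ISO. In NK barcodes with few myeloid UMIs it summed to 236 and 787 CPM. At 2000 UMIs, 43.1% of those T cells in control and 63.2% in ISO held 2 or more of its genes. The shares of NK barcodes were 4.5% and 25%. Of the 10 genes of the ILC1 list, 2 or more had a UMI in 32 of 413 control barcodes (7.75%, 5.36 to 10.8) and in 7 of 24 ISO barcodes (29.2%, 12.6 to 51.1). With no UMI of Gzma as well, there were 15 in control (3.63%, 2.05 to 5.92) and 5 in ISO (20.8%, 7.13 to 42.2). Eomes was at 0 in 14 of those 15 and in 5 of those 5. The rule itself counts Gzma, so a barcode without it needed more UMIs of the other genes to enter. The intervals of these shares did not overlap without thinning. At 2000 UMIs per barcode, the shares were 3.75% (2.11 to 6.11) of 400 control and 16.7% (4.74 to 37.4) of 24 ISO barcodes, the latter from 4 barcodes, and the intervals overlapped.

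The 5 ISO barcodes held 14 to 28 UMIs of Xcl1, 4 to 6 of Ncr1, and 28 to 106 of Ccl5 each. They held 1 to 13 UMIs of Tmem176b, a membrane protein of innate lymphoid cells, and 1 to 3 of Inpp4b, a lipid phosphatase. Other genes of the ILC1 list were mostly not found in them, with Itga1 and Zfp683 in 0 of the 5, Il7r and Tnfsf10 in 1, and Cxcr6 in 2. Of the 15 control barcodes of this kind, 8 held a UMI of Itga1, the integrin CD49a, and 12 of Cxcr6, a chemokine receptor of resident lymphocytes. S1pr5, Klf2, Cma1, and Itgam were at 0 in all 5. Another ISO barcode carried 34 UMIs of Areg, amphiregulin, with 16 of Gata3 and 10 of Rora, a set of genes of group 2 innate lymphoid cells, together with NK genes. That barcode held 34 of the 36 Areg UMIs in the few-myeloid ISO barcodes, so the log2 ratio of 3.36 for Areg is the value of 1 barcode. The 4 genes of the ILC1 list with enough UMIs to be compared had log2 ratios of 2.94 for Tmem176b, 2.39 for Tmem176a, 1.84 for Inpp4b, and 1.08 for Rora. These ratios rest on few ISO barcodes. A single barcode held 13 UMIs of Tmem176b, the most of Tmem176a in 1 barcode was 6, and 10 of Rora were in the barcode with Areg. The 17 ISO barcodes with fewer than 2 ILC1 genes held 1 UMI of Inpp4b and 0 of the other 3 genes.

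The lower late genes were also seen without these barcodes. Barcodes with few myeloid UMIs and fewer than 2 ILC1 genes numbered 381 in control and 17 in ISO, and there 372 of 4779 genes (7.78%) were past 2-fold higher and 751 (15.7%) past 2-fold lower. The median of the late genes was -1.38, with 8 of 12 past 2-fold lower. Log2 ratios were -2.42 for S1pr5, -2.08 for Klf2, -1.64 for Zeb2, and -1.55 for Cma1. The median of the early genes was 0.64, and Xcl1 had a log2 ratio of 0.64, against 1.20 and 1.14 with these barcodes. The 4 late genes just named were each nearer 0 than with these barcodes, while the median of the late list was not. Eomes had a log2 ratio of -0.62 there. Of the 64 UMIs of T cell transcripts in the 24 ISO barcodes, 32 were in these 17. Cd3g was at 0 in these 17, so its UMIs in the 24 lay in barcodes with 2 or more ILC1 genes.

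Ly49 receptor genes, of which each NK cell is known to use a few, were found in most members of both libraries. Without thinning, 83.3% of 413 control barcodes (79.3 to 86.8) and 75% of 24 ISO barcodes (53.3 to 90.2) held UMIs of 2 or more of the 11 Klra genes in the files. At 2000 UMIs the shares were 77.5% (73.1 to 81.5) of 400 and 54.2% (32.8 to 74.4) of 24, so the intervals overlapped. In T cells with few myeloid UMIs, which mostly lack these receptors, the share at 2000 UMIs was 1.80% of 167 in control. The highest number of Klra genes in a barcode at that depth was 5 in control and 4 in ISO.

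Single Klra genes had ratios on both sides of 0. Klra4, the activating Ly49D, was at 1141 (1091 to 1194) CPM in control and 709.6 (556 to 892) in ISO, a log2 ratio of -0.68 (-1.04 to -0.35). Klra8, the activating Ly49H, had a log2 ratio of -0.80 (-1.30 to -0.36), Klra9, an inhibitory member, one of -0.69 (-1.20 to -0.26), and Klra1, Ly49A, one of -1.22 (-2.53 to -0.31). Klra7, the inhibitory Ly49G, was at 395 (366 to 427) and 671 (522 to 849) CPM, a log2 ratio of 0.77 (0.38 to 1.12). The genes of this family are near copies of each other, so reads could be split between them and single members are uncertain. Over all members, the log2 ratios were -1.86 for Klra4, -1.32 for Klra8, -1.25 for Klra9, -2.34 for Klra1, and -0.57 for Klra7, so the direction of Klra7 turned.

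The lists of surface receptors, which include Klra genes, showed no common direction. Of 27 activating receptors and adaptors, 2 were past 2-fold higher and 2 lower (7.41% each), against 5.97% and 14.8% of all genes. Their median was 0.00104. This list includes the rule gene Klrb1c, so these values follow in part from how members were chosen. The adaptors Tyrobp (DAP12) and Fcer1g had log2 ratios of -0.069 (-0.26 to 0.11) and -0.045 (-0.24 to 0.14), and Klrk1 (NKG2D) one of -0.081 (-0.45 to 0.25). Cd226, the activating receptor DNAM-1, was at 41.6 (32.4 to 52.6) CPM in control and 165 (96.3 to 265) in ISO, a log2 ratio of 2.02 (1.13 to 2.77). Of 13 inhibitory receptors and phosphatases, 2 were past 2-fold higher (15.4%) and 5 lower (38.5%), against 5.97% and 14.8% of all genes. Their median was -0.36. Klrb1b, an inhibitory lectin receptor, had a log2 ratio of -1.58 (-2.72 to -0.76), while Klrd1 (CD94) had one of -0.044 (-0.36 to 0.25) and Ptpn6, the phosphatase SHP-1, one of 1.63 (1.09 to 2.11). Over all members, the medians of the activating and inhibitory lists were -0.83 and -1.11, and the log2 ratios were 0.16 for Cd226, -2.52 for Klrb1b, and 0.86 for Ptpn6.

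Of 25 receptors and signal carriers for interleukins, 7 were past 2-fold lower and 0 higher, against 14.8% and 5.97% of all genes, with a median of -0.57, and -0.70 over all members. Il18r1, the receptor for interleukin-18, was at 288 (263 to 315) CPM in control and 87.5 (40.01 to 166) in ISO, a log2 ratio of -1.64 (-2.86 to -0.78). Its partner Il18rap had a log2 ratio of -0.81 (-1.45 to -0.28). The kinase Jak1 had a log2 ratio of -0.83 (-1.24 to -0.47), Il10ra, the interleukin-10 receptor, one of -2.63 (-6.01 to -1.09) from 2 ISO UMIs, and the kinase Tyk2 one of -2.97 (-8.86 to -1.05) from 1 ISO UMI. Il2rb and Il2rg, the receptor chains for interleukin-2 and interleukin-15, had log2 ratios of 0.32 (-0.023 to 0.62) and 0.29 (-0.25 to 0.74), with intervals that include 0. Over all members, Il18r1 had a log2 ratio of -2.43, Il18rap of -1.93, and Jak1 of -1.47.

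Among 22 transcription factors of NK cells, 8 were past 2-fold lower and 1 past 2-fold higher, against 14.8% and 5.97% of all genes, with a median of -0.80, and -1.28 over all members. Ets1, needed for NK development, was at 1017 (969 to 1067) CPM in control and 359.7 (253 to 496) in ISO, a log2 ratio of -1.48 (-2.01 to -1.03). Tbx21, which encodes T-bet, had a log2 ratio of -0.51 (-1.20 to 0.045), and Irf8 one of -0.56 (-0.79 to -0.34). The gene past 2-fold higher was Gata3, at 1.30 (0.74 to 1.80), of whose 36 ISO UMIs 16 were in the barcode with Areg. Without barcodes that carry several ILC1 genes, its log2 ratio was 0.17, and over all members -0.25. Ets1 had -1.97, Tbx21 -1.75, and Irf8 -1.66 over all members.

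Of 23 trafficking genes, 7 were past 2-fold lower and 1 higher, against 14.8% and 5.97% of all genes, with a median of -0.48, and -0.69 over all members. S1pr5, Klf2, Cx3cr1, and Itgam, described above, are on this list as well. Itga4, an integrin that binds VCAM-1, was at 636 (598 to 675) CPM in control and 292 (197 to 416) in ISO, a log2 ratio of -1.10 (-1.70 to -0.60). Cxcr4, the receptor for the stromal chemokine CXCL12, had a log2 ratio of -1.09 (-1.82 to -0.50). Ccr2, a receptor for monocyte-attracting chemokines, had a ratio of 0.14 (-0.33 to 0.55), and Cxcr3, the receptor for interferon-induced chemokines, 11 UMIs in ISO and a ratio of 2.13 (0.97 to 3.06). Over all members, the ratios were -1.73 for Itga4, -1.28 for Cxcr4, 0.49 for Ccr2, and 1.08 for Cxcr3.

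Ccl5, a chemokine that NK cells store, was at 15447 (15258 to 15637) CPM in control and 12958 (12272 to 13673) in ISO, a log2 ratio of -0.25 (-0.33 to -0.17). The inflammatory chemokines Ccl3 and Ccl4 had log2 ratios of -0.30 (-0.62 to -0.011) and 0.13 (-0.014 to 0.27). Ifng was at 421 (391 to 454) CPM in control and 525 (394 to 685) in ISO, a log2 ratio of 0.33 (-0.11 to 0.72), from UMIs in 199 of 413 and 14 of 24 barcodes. Over all members, Ccl5 had a log2 ratio of -1.31 and Ifng of -0.75, so the direction of Ifng turned. Among the 10 genes of the cytokine and chemokine list, 4 were past 2-fold higher (40%, against 5.97% of all genes), namely Xcl1, Ltb, Areg, and Il1b. Il1b, a cytokine of macrophages, had 16 UMIs in the few-myeloid ISO barcodes and 2500 in the mixed ones, and log2 ratios of 1.82 without and 5.96 with the mixed barcodes.

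Ribosomal protein genes lay mostly above 0 in few-myeloid ISO barcodes, by less than 2-fold. Of 75 cytosolic ribosomal protein genes, 68 had ratios above 0 and 60 had intervals above 0, with a median of 0.61. Of these, 4 were past 2-fold higher (5.33%), near the 5.97% of all genes. The median was 0.29 over all members and 0.60 without the barcodes that carry several ILC1 genes. In T cells with few myeloid UMIs, 168 in control and 19 in ISO, the median of the list was 0.040. Rps2, a protein of the small subunit, was at 2007 (1939 to 2076) CPM in control and 5920.1 (5459 to 6409.5) in ISO, a log2 ratio of 1.56 (1.43 to 1.69), and 1.25 over all members.

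Srm, spermidine synthase, had one of the highest ratios in few-myeloid barcodes. It was at 18.7 (12.7 to 26.5) CPM in control and 185 (111 to 288) in ISO, a log2 ratio of 3.32 (2.40 to 4.18), and 2.53 over all members. UMIs of Srm were found in 20 of 413 control and 9 of 24 ISO barcodes, at most 8 per ISO barcode, and in 7.49% of control B cells. Mrto4, a ribosome assembly factor, had a log2 ratio of 2.698 (1.77 to 3.51), C1qbp, a mitochondrial matrix protein, one of 2.37 (1.602 to 3.04), and Mrpl41, of the mitochondrial ribosome, one of 2.45 (1.54 to 3.24). These genes were taken from a ranking of few-myeloid barcodes that was added after the values were seen. Gadd45b, a stress-induced gene, was at 301 (275 to 328) CPM in control and 1468 (1243 to 1722) in ISO, a log2 ratio of 2.29 (2.01 to 2.55), and Myc, the growth factor-induced transcription factor, had one of 2.09 (1.19 to 2.84). Over all members these were 2.13 and 0.31.

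Of 21 chaperone genes, 5 were past 2-fold higher (23.8%) and 3 lower (14.3%, near the 14.8% of all genes), with a median of 0.60 and 11 intervals above 0. Hsp90ab1, the constitutive cytosolic HSP90, was at 1720.4 (1658 to 1785) CPM in control and 3995 (3618 to 4401) in ISO, a log2 ratio of 1.22 (1.06 to 1.37). Hspe1 and Hspd1, the mitochondrial chaperonins, had log2 ratios of 1.58 (1.25 to 1.88) and 1.03 (0.44 to 1.54), and Cct8, of the cytosolic chaperonin, one of 1.08 (0.58 to 1.52). Over all members, Hsp90ab1 had a log2 ratio of 1.05, Hspe1 of 0.89, Hspd1 of 0.61, and Cct8 of 0.85. The stress-induced members Hspa1a and Hspa1b were lower. Hspa1a had 1 UMI in ISO and a log2 ratio of -2.87 (-8.76 to -0.95), and Hspa1b 5 UMIs and one of -1.91 (-3.68 to -0.81). Over all members Hspa1a had a log2 ratio of 1.59, so its direction turned with the mixed barcodes.

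**Figure D4:**
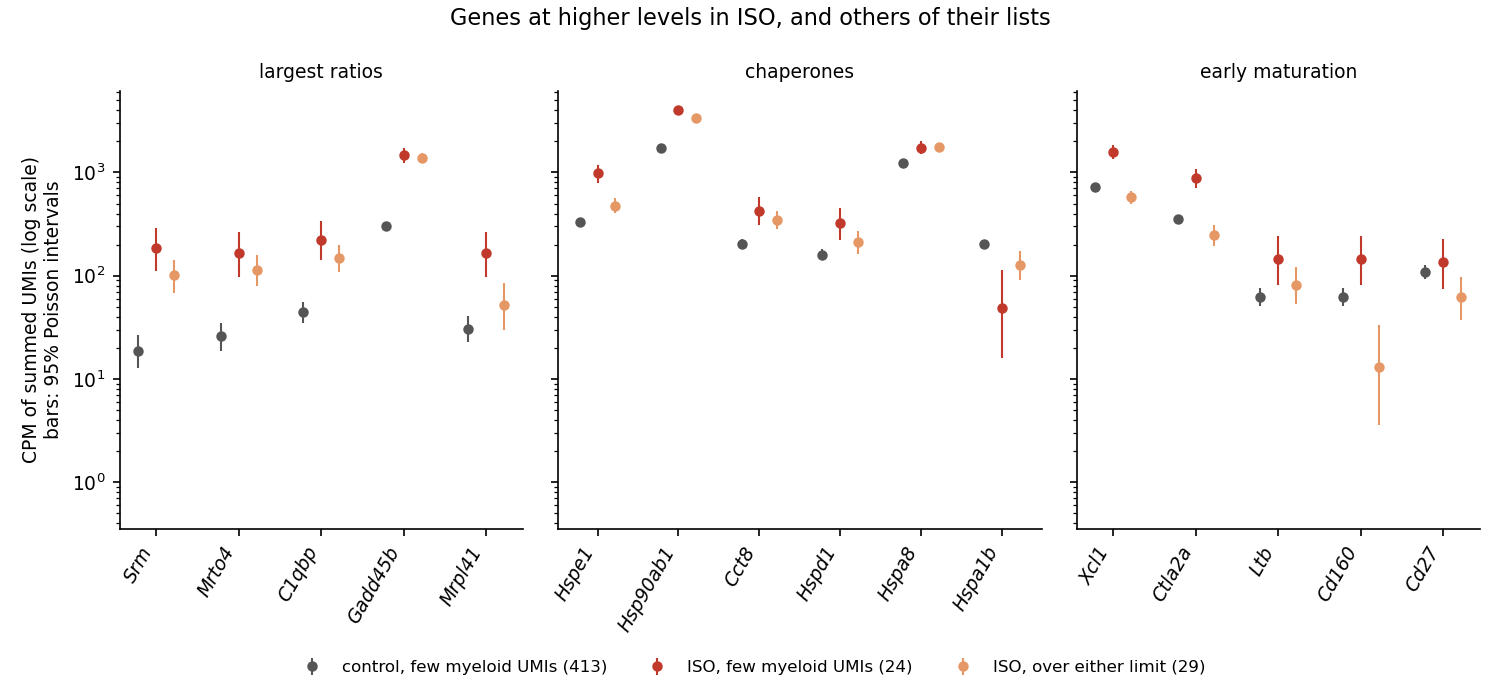
CPM of summed UMIs on a log scale with 95% Poisson intervals for genes with large ratios, chaperones, and early maturation genes, in the 413 control and 24 ISO barcodes with few myeloid UMIs and in the 29 mixed ISO barcodes. Srm, Mrto4, C1qbp, Hspe1, and Hsp90ab1 are higher in both kinds of ISO barcode, Hspa1b is lower, and Xcl1, Ctla2a, and Cd160 are above control in the few-myeloid ISO barcodes alone.

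Proteasome, nuclear respiratory chain, and glycolysis genes had medians above 0, and genes of the mitochondrial genome one below 0. Of 17 proteasome core genes, 16 had ratios above 0, with a median of 0.64, and 0.63 over all members. Of 70 nuclear genes of the respiratory chain, 62 had ratios above 0, with a median of 0.48. Past 2-fold higher were 8 (11.4%, against 5.97% of all genes). The 7 genes measured of the mitochondrial genome had a median of -0.24, with 6 ratios and 3 intervals below 0. Of 12 glycolysis genes, 4 were past 2-fold higher (33.3%, against 5.97% of all genes) and 0 lower. Their median was 0.49 without and 1.34 with the mixed barcodes. Pkm, pyruvate kinase, was at 181 (161 to 203) CPM in control and 418 (303 to 563) in ISO, a log2 ratio of 1.22 (0.71 to 1.67), and 2.64 over all members. Ldha, lactate dehydrogenase, and Aldoa, aldolase, had log2 ratios of 1.14 (0.71 to 1.54) and 1.21 (0.68 to 1.68).

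Cell cycle genes gave a mixed picture, with 3 of 18 past 2-fold higher (16.7%, against 5.97% of all genes) and 0 lower. Their median was 0.33. Tubb5, a β tubulin, had a log2 ratio of 1.21 (0.85 to 1.54), Mcm2, a replication helicase subunit, one of 1.36 (0.24 to 2.23), and Pcna, the replication clamp, one of -0.98 (-2.56 to 0.050). At 2000 UMIs per barcode, the list had medians of 5 UMIs in control and 4 in ISO. The spread among control barcodes, from 0 to 45 UMIs, was wider than that difference.

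Of 18 measured genes of adrenergic and cAMP signaling, 3 were past 2-fold lower (16.7%, near the 14.8% of all genes) and 0 higher. Their median was -0.39. Crem, a cAMP-induced transcription factor, had a log2 ratio of -0.16 (-0.74 to 0.34), and Prkacb, a catalytic subunit of protein kinase A, one of -1.04 (-2.18 to -0.21).

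Stress response genes differed among themselves. Dissociation of tissue can induce immediate early genes. Of 23 such genes, 3 were past 2-fold higher and 2 lower, against 5.97% and 14.8% of all genes. Their median was 0.11. Nfkbia, the NF-κB inhibitor, was at 713 (673 to 755) CPM in control and 1925 (1666 to 2212) in ISO, a log2 ratio of 1.44 (1.21 to 1.65). Klf6 and Btg1 had log2 ratios of -1.10 (-1.77 to -0.56) and -1.03 (-1.53 to -0.61), and Fos and Jun 0.11 (-0.63 to 0.72) and -0.17 (-0.84 to 0.39). Of 12 glucocorticoid response genes, 3 were past 2-fold lower (25%, against 14.8% of all genes) and 0 higher. Their median was -0.62. Tsc22d3, the glucocorticoid-induced leucine zipper, had a log2 ratio of -0.68 (-1.49 to -0.043).

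Interferon response genes had a median of -0.35, with 0 past 2-fold higher and 4 lower of 19 (21.1%, against 14.8% of all genes). MHC class I genes had a median of 0.0094 with 0 of 17 past 2-fold. Psmb8, an immunoproteasome subunit on that list, had a log2 ratio of 0.998 (0.65 to 1.32), just under the limit. Among 15 genes of survival and death, Bax, which opens the mitochondrial membrane in apoptosis, had a log2 ratio of 1.30 (0.67 to 1.83), and Bcl2 and Mcl1, which oppose it, -0.0099 (-0.82 to 0.64) and 0.15 (-0.39 to 0.61). Bnip3l, a mitophagy receptor, had 148 UMIs in control and 0 in the 24 ISO barcodes, which allows up to 29.2 CPM there, the level of 3 counts, against 89.2 (75.4 to 105) in control.

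**Figure D5:**
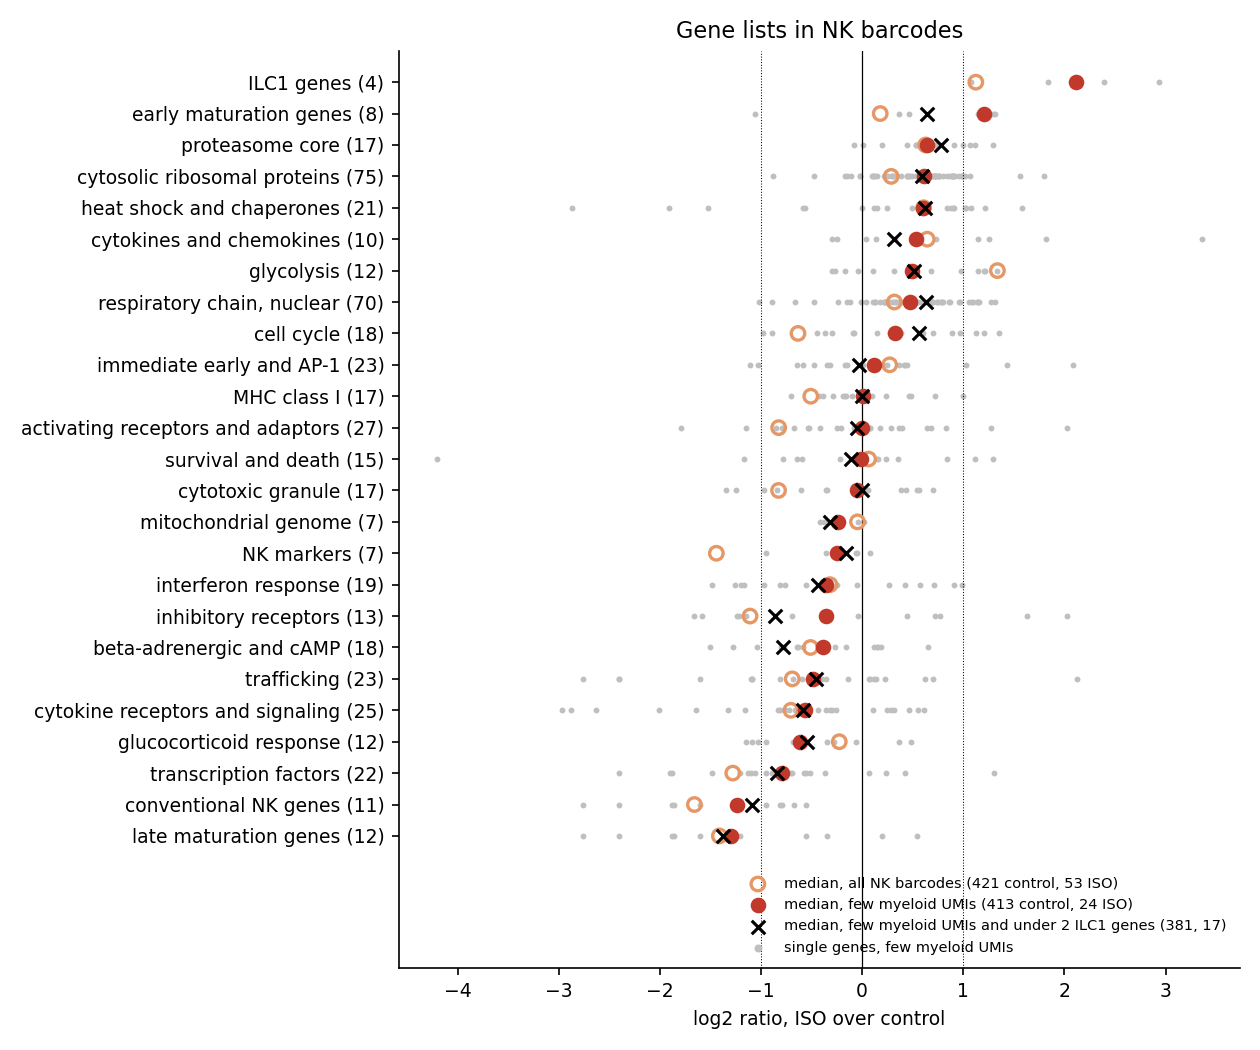
Median log2 ratio, ISO over control, of each gene list in all NK barcodes (open circles), in those with few myeloid UMIs (filled circles), and in those that also have fewer than 2 ILC1 genes (crosses), with single genes in gray and the number of genes measured with few myeloid UMIs in parentheses. Of the lists drawn, late maturation and conventional NK genes have the lowest and ILC1 and early maturation genes the highest medians with few myeloid UMIs. The late maturation and conventional NK lists share genes such as S1pr5, Cma1, Itgam, and Irf8. Lists with fewer than 4 genes left have no cross. The granule, activating receptor, and MHC class I lists lie near 0 without the mixed barcodes, and the granule and activating receptor lists include rule genes.

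Several of the genes with the largest ratios over all members were absent from the few-myeloid ISO barcodes. Inhba, an activin subunit, had 65 UMIs in all ISO members and 0 in those with few myeloid UMIs. Timp1, a metalloproteinase inhibitor, had 112 and 0, Arg1, arginase of macrophages, 266 and 0, and Ccr7, a homing receptor of dendritic cells, 61 and 0. Fn1, fibronectin, Chi3l3, a chitinase-like protein, and Vcan, versican, were higher still in the other ISO cells, and had 3, 3, and 0 UMIs in the 24 barcodes. Of the 15 leading genes, 8 had enough UMIs in few-myeloid barcodes, and 6 of these were past 2-fold higher there too, among them Srm, Mrto4, C1qbp, and 1110038B12Rik. The last of them, named only by a clone number, had a log2 ratio of 2.71 (1.94 to 3.39).

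All 15 genes with the lowest ratios over all members were also past 2-fold lower in few-myeloid barcodes. Lats2, a kinase of the Hippo pathway, had a log2 ratio of -2.71 over all members and -2.85 with few myeloid UMIs, from 1 ISO UMI in the latter. Tnk2, a nonreceptor tyrosine kinase, had -3.23 and -2.11, Trp53inp1, a p53-induced gene, -2.48 and -2.10, and Lpin1, a lipid phosphatase, -2.16 and -1.67. Adamts14, a procollagen protease and one of the genes with the highest ratio of NK to other barcodes in control, had -2.19 and -1.08. Some of these were lower in the other cells of the ISO library as well, with log2 ratios of -2.42 for Tnk2, -2.44 for Trp53inp1, and -1.85 for Lpin1. S1pr5 and Klf2 were lower there too, at -3.43 and -1.13. Over all genes, 521 of the 1066 lower genes and 233 of the 482 higher ones were past 2-fold the same way in the other cells.

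A few abundant RNAs were lower across the library. Gm26924, a transcript that overlaps ribosomal RNA sequence, took 50069.9 (49730 to 50412) CPM in control and 17935 (17126 to 18773) in ISO few-myeloid barcodes, a log2 ratio of -1.48 (-1.55 to -1.41), against -2.29 in the other cells. Lars2 had log2 ratios of -1.64 in these NK barcodes, -1.48 in T cells with few myeloid UMIs, and -2.34 in the other cells. Malat1, a nuclear RNA, had -0.91 in the NK barcodes and -0.79 in the other cells. The part of such library-wide differences in the NK ratios was not tested.

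Genes that varied most between the NK barcodes of control were of several kinds. At 2000 UMIs, 5519 genes with a mean of at least 0.05 UMI had a median variance over mean of 1.04, and a 95th percentile of 1.35. The highest values were 15.7 for Ccl4, 15.1 for Xcl1, 14.1 for Gm26924, 12.5 for Areg, 9.85 for Ccl5, 9.65 for Cd74, the MHC class II invariant chain of antigen-presenting cells, 9.599 for Malat1, 9.33 for Ifng, and 8.91 for Gzma. Xcl1, one of the early genes that were higher in ISO, was thus already among the genes that varied most between control barcodes.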

How the data were processed

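The authors deposited UMI counts per gene and barcode for each library, without normalization. The submitters' processing notes name bcl2fastq 2.19.1.403, UMI-tools 1.0.0, STAR 2.7.3a, Subread with featureCounts 1.6.4, and mm10. The annotation and counting settings are not given in the sources used here. The files held 5927 control and 5514 ISO barcodes, with 47382455 and 58495112 UMIs. Barcodes with 501 to 5999 genes and under 25% mitochondrial UMIs were kept, which left 5641 and 5437.

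UMIs were summed over the members of a library and scaled to CPM, with exact Poisson intervals at 95%. For log2 ratios 0.5 UMI was added, and their intervals come from the exact conditional binomial distribution. Shares have exact Clopper-Pearson intervals, and the limit that a count of 0 allows is set at 3 counts. Levels are UMIs of transcript 3′ ends, not divided by length. T cells held at least 3 UMIs of Cd3d, Cd3e, and Cd3g, and B cells at least 8 of Cd79a, Cd79b, and Ms4a1. Thinning drew 1000 or 2000 UMIs per barcode without replacement. Python 3.11.15, numpy 2.4.6, scipy 1.17.1, and pandas 2.3.3 were used, figures were drawn with matplotlib 3.10.9, and the ratio step was checked on simulated data. Gene positions are from GENCODE on GRCm38.

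Members and lists were chosen with earlier results of these data known. Genes were named by a rule: the rule and marker genes, the 15 highest and 15 lowest ratios above minimums of 100 CPM and 50 UMIs in genes that were higher in members than in other cells, 6 of each kind among the rest, the most abundant and extreme genes of each list, the 15 most variable, and the 15 leading over other cells. Outside it, 27 of the 119 genes were chosen after their values were seen: Ccr2, Cct8, Cd160, Cx3cr1, Cxcr3, Fasl, Fos, Hspd1, Hspe1, Il10ra, Il18rap, Il2rg, Itga1, Itga4, Jun, Klf6, Klrk1, Ltb, Mcm2, Myc, Pcna, Ptpn6, Rps2, Serpinb9, Tbx21, Tnfsf10, and Zfp683. The limit on myeloid transcripts, the split by ILC1 genes, and the ranking of few-myeloid barcodes were also added after the values were seen. Alternatives covered thresholds, denominators, depth, scaling, and free RNA. Some genes that were measured are not reported here.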

Additional observations from a re-analysis of the deposited data

How the results depend on the processing

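Each group was 1 library of 3 pooled hearts, with no measure of the spread between hearts, and every few-myeloid value in ISO rests on 24 barcodes. No paired analysis was possible because each group holds 1 library and no test was run. Leaving out a replicate was not possible for the same reason.

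The log2 ratio of the NK share was -2.94, and 8 of 13 alternatives moved it by less than the counting interval. It was -3.42 with kept barcodes thinned to 2000 UMIs and lower minimums set for the rule genes. In that setting, barcodes under 2000 UMIs were left out, and the other limits used unthinned counts. Among NK and T cells the log2 ratio was -0.75. With few myeloid UMIs it was -4.05, -4.21 among cells other than B cells, and -0.35 among NK and T cells with few myeloid UMIs. Genes past 2-fold higher numbered 482, and 789 with at least 20 UMIs, 283 with at least 100 UMIs, 739 with ratios centred on their median, 205 without C1q, S100a8, or S100a9 UMIs and with at most 1 Lyz2 or Apoe UMI (241 control and 13 ISO barcodes), and 309 with few myeloid UMIs. Genes past 2-fold lower numbered 1066, and 1611, 637, 612, and 584 under the first 4 of these.

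Of 417 list medians under alternatives, 7 changed sign from a median past 2-fold. The dendritic cell list, which the myeloid limit uses, went to -4.78 with free RNA subtracted, -0.70 with the strict limits on C1q, S100a8, S100a9, Lyz2, and Apoe, -0.22 with few myeloid UMIs, and -0.23 also without several ILC1 genes. The ILC1 and ILC2 lists went to -2.55 and -0.46 without several ILC1 genes, where that split removes their genes by construction, and the B cell list, of 1 gene otherwise, to 0.18 with at least 20 UMIs. Of 1472 single ratios, 13 changed sign from a ratio past 2-fold. Fos went to -0.61 with free RNA subtracted, -0.12 under the strict limits, and -0.30 without several ILC1 genes, and Hspa1a to -3.27 under the strict limits, -2.87 with few myeloid UMIs, and -2.49 without several ILC1 genes. Cd74 went to -2.15 with free RNA subtracted, -0.70 under the strict limits, -0.46 with few myeloid UMIs, and -0.72 without several ILC1 genes. Arg1 went to -0.38 with few myeloid UMIs, and Gzma and Nkg7 to 0.19 and 0.068 without several ILC1 genes. Beyond the mixed barcodes removed, the cause of these moves was not tested. The subtraction of free RNA took 2.09% of the UMIs of control members and 54.9% of those of ISO members.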

Other observations

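Barcodes with NK and C1q transcripts together stood outside the members. The 45 control and 18 ISO barcodes left out for C1q alone held medians of 10976 and 14817.5 UMIs, against 3645 and 5563 in the members. C1q encodes complement proteins made by macrophages, and the content of these barcodes was not analysed further.

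The 8 mixed control and the 29 mixed ISO barcodes had unlike sums of myeloid transcripts. Dendritic cell transcripts summed to 24218 CPM (22950 to 25538) in the former and 9076 (8742 to 9420) in the latter, and macrophage transcripts to 2237 (1864 to 2664) and 25741 (25177 to 26315). A single control barcode held 25040 of the 56322 UMIs of the 8. Per barcode, the dendritic cell medians were 3323 CPM in control and 2157.5 in ISO, and the macrophage medians 2602 and 21571. Of the 8 control barcodes, 5 were over the macrophage limit, which is itself a percentile of the control members. Fibroblast transcripts, of which the detected genes were Gsn and Mgp, summed to 266.9 CPM (212 to 331) in the mixed ISO barcodes and were at 0 in the 24 ISO barcodes with few myeloid UMIs.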
